A study of Mus musculus with 6 samples.

Results

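Glutamate receptor genes, with the auxiliary subunits and scaffold proteins of their receptors, were read from RNA libraries of mouse brain. The genes were chosen by symbol: 4 AMPA, 5 kainate, 7 NMDA and 1 delta receptor genes, 6 metabotropic receptor genes, 6 auxiliary subunits of AMPA receptors, 2 of kainate receptors, and 6 scaffold genes. All 37 had a row among the 24346 gene symbols of each library. The study compared 3 brains lacking both miR-124a-1 and miR-124a-2 by their labels (miR-124a-1/2 DKO) with 3 control brains that were miR-124a-1+/-, all at embryonic day 17.5. The control is therefore not wild type, since it too carries a mutant miR-124a-1 allele. The labels name no promoter, Cre line, litter or pooling, and the headers of the DKO columns carry the letters CKO, which the labels do not explain. Values are FPKM, that is, fragments counted on a gene divided by its transcript length and by the size of the library. Levels are compared between genes on that basis, although the annotation that set the lengths is not given.

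Glutamate is the main excitatory transmitter of the brain and the retina. AMPA, kainate and NMDA receptors are ion channels built of several subunits that open when glutamate binds, whereas metabotropic receptors signal through G proteins. Auxiliary subunits carry the channels to the membrane and set their kinetics, and scaffold proteins of the postsynaptic density hold them opposite the release site. In the retina, photoreceptors and bipolar cells release glutamate, and OFF bipolar, horizontal, amacrine and ganglion cells receive it through ionotropic receptors.

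Markers of the retina were high, whereas markers of dividing cells and of the cortex were low or at 0. The 7 rod markers summed to 7753 to 8959 FPKM, the 8 ON bipolar markers to 621 to 699.8 FPKM and the 7 amacrine markers to 309 to 363 FPKM. Of the 6 markers of dividing cells, 0 reached a mean of 1 FPKM, their sum was 1.03 to 2.94 FPKM, and the cortical factor Emx1 is listed at 0 in all 6 libraries. The 8 cortical markers summed to 15.9 to 19.4 FPKM. The 6 hippocampal and cerebellar markers summed to 317 to 387 FPKM, as high as the amacrine markers. Of this sum Pcp2, counted also among the ON bipolar markers, made 254 to 319.7 FPKM, and Gabra6 is listed at 0 in all 6 libraries. The groups are named by their labels only. The host transcript Mir124a-1hg (GRCm38 chromosome 14, 64587331 to 64593961) measured 492 ± 24.5 FPKM in DKO and 480.1 ± 54.9 FPKM in control libraries (SD, n = 3 each; 2-sided exact permutation p = 0.8, where 0.1 is the smallest possible). 2610100L16Rik, the host transcript of miR-124a-2, measured 88.5 ± 16.2 FPKM in DKO and 102 ± 18.9 FPKM in control libraries (SD, n = 3 each; exact permutation p = 0.5). For replicates 1 to 3 in order, its values were 69.9, 98.0 and 97.8 FPKM in DKO and 80.3, 110 and 115 FPKM in control libraries. Each DKO value of 2610100L16Rik thus lay below the control value of the same number, a pairing that the permutation test did not use. The host transcripts overlapped between the groups. The labels name miR-124a-1 and miR-124a-2 as lacking but do not say which bases were deleted. Levels of the host transcripts therefore could not check the labels, and the loss of miR-124a was not shown here. Depth relative to DKO replicate 1, read from the steps between low values, was 0.957 to 1.23. Control replicate 3 stood apart by the short RNA Mir8104, which took 4.42% of the summed FPKM.

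The glutamate receptor genes differed widely in level, and their order changed little between libraries. The scaffold gene Dlg4 was the highest, with a mean of 229.6 FPKM over the 6 libraries, above 98.1% of the tested rows. It was followed by the auxiliary subunit Cacng7 (95.4 FPKM), the scaffold Dlg2 (63.0 FPKM) and the AMPA subunit Gria2 (58.0 FPKM). The lowest was Grin3b, with a mean of 0.745 FPKM, and it alone of the 37 genes missed the minimum mean of 1 FPKM set for testing. The spread over all 6 libraries was smallest for Homer1, with a coefficient of variation of 2.76%, and largest for Cacng8, with 32.7%.

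**Figure D1:**
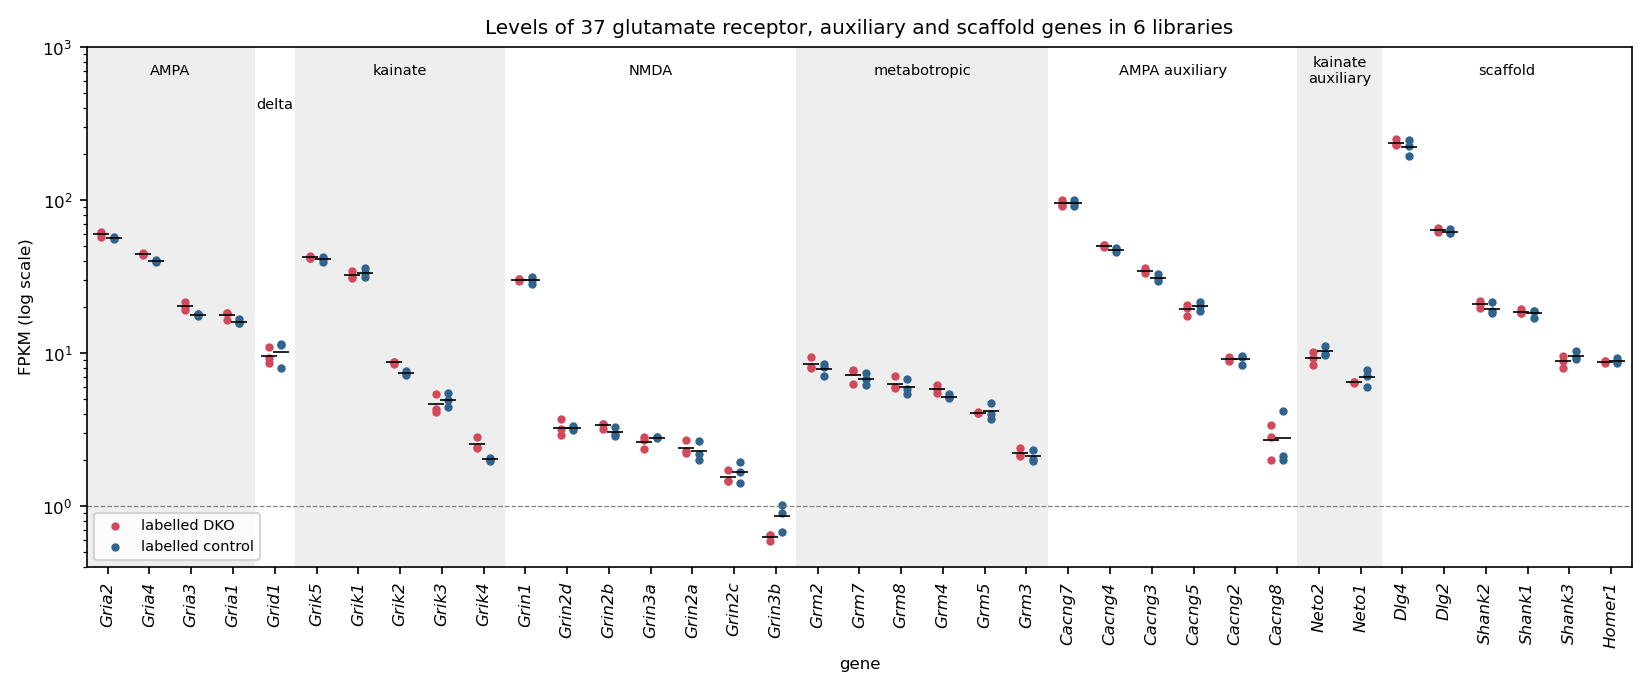
FPKM on a log axis for each of the 37 genes in the 6 libraries, grouped by role and ordered by mean level. Points are single libraries, black dashes are group means, and the dashed line is the minimum mean of 1 FPKM; Dlg4 stands highest (193 to 249 FPKM) and Grin3b lowest (0.590 to 1.01 FPKM).

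None of the 36 tested genes passed the threshold in the comparison of DKO with control libraries (limma on log2(FPKM + 1), Benjamini-Hochberg adjusted p 0.460 to 0.998). Over all 13215 tested rows 3 passed, or 0.0227%. At an unadjusted p under 0.05 in limma there were 4 of the 36 genes, all higher in the DKO libraries: Gria3, Gria4, Grik2 and Cacng3. The background at that limit was 7.88% of all rows, and 3.52% counting higher rows only. In 8 of the 36 genes every DKO value lay above every control value, where 6.96% of all rows did so, and in 0 of the 36 did every DKO value lie below, against 6.95% of all rows. Grin3b, too low to be tested, lay below in every DKO library. The 8 genes were the AMPA subunits Gria2, Gria3 and Gria4, the kainate subunits Grik2 and Grik4, the metabotropic receptor Grm4, and the AMPA auxiliary subunits Cacng3 and Cacng4. Without control replicate 2 there were 15 such genes, where 12.1% of all rows did so, and without DKO replicate 3 the count at an unadjusted p under 0.05 in limma was 2. The log2 fold change was above 0 in 24 of 36 genes, against 49.5% of all rows, with a median of 0.04 against -0.0016 over all rows. These shares were not tested against the background.

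**Figure D2:**
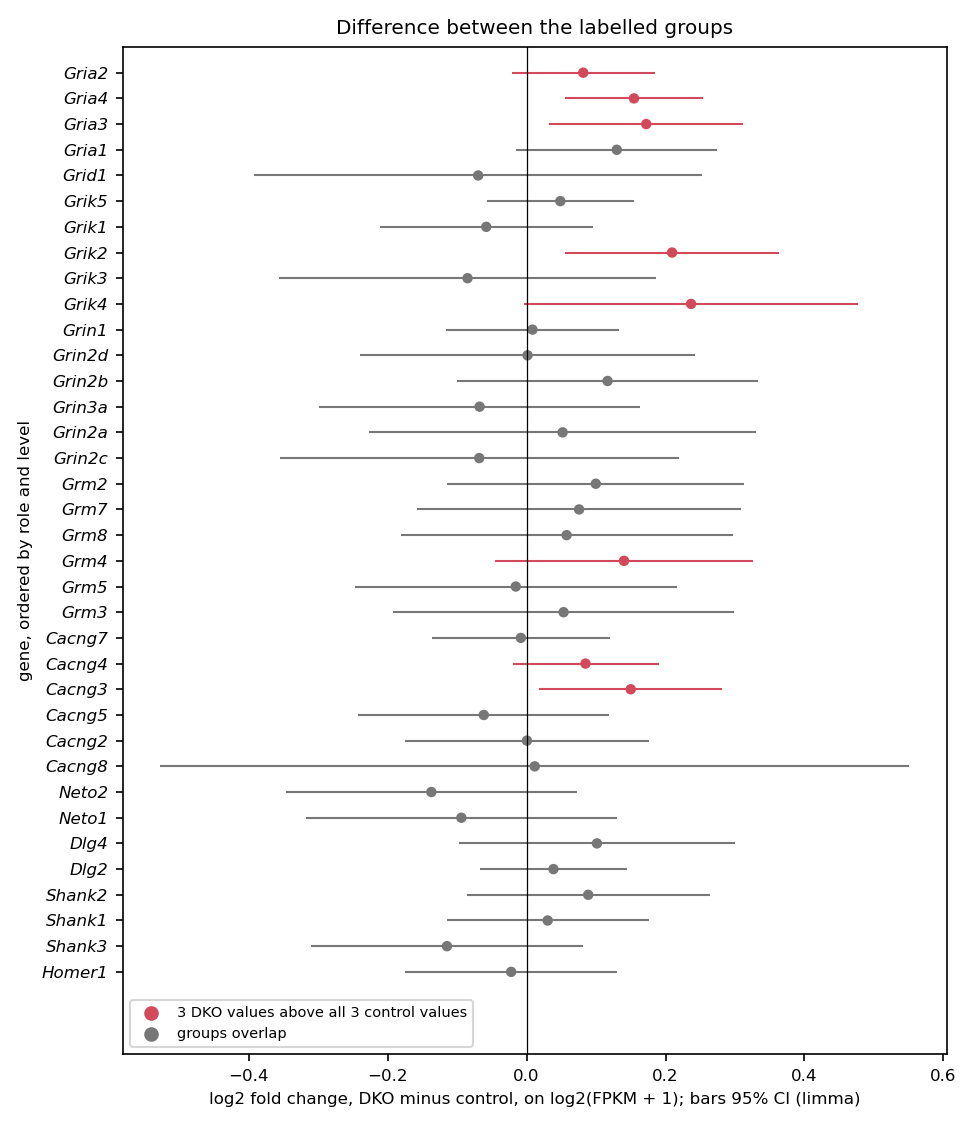
Log2 fold change of the 36 tested genes, DKO minus control, on log2(FPKM + 1), with 95% confidence intervals from limma. Red genes are the 8 whose 3 DKO values all lie above the 3 control values; estimates run from -0.14 for Neto2 to 0.24 for Grik4, and no gene passed the threshold.

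AMPA receptors carry fast excitatory transmission, and Gria2 was their most abundant transcript. Its product GluA2 makes the channel nearly impermeable to calcium once its messenger RNA has been edited. Gria2 made up 41.9% ± 0.625 of the summed AMPA FPKM in DKO libraries and 43.2% ± 0.710 in control libraries (SD, n = 3 each). Gria4 followed with 31.4% ± 0.677 and 30.7% ± 0.719, Gria3 with 14.2% ± 0.939 and 13.7% ± 0.126, and Gria1 with 12.4% ± 0.422 and 12.3% ± 0.373 (SD, n = 3 each). The order Gria2, Gria4, Gria3, Gria1 held in all 6 libraries, although the ranges of Gria3 and Gria1 overlapped between libraries. Of the 4 shares, that of Gria2 alone separated the groups, narrowly, with 41.5% to 42.6% in DKO and 42.7% to 44.0% in control libraries.

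All 4 AMPA genes had a higher mean in the DKO libraries, with ratios of 1.06 for Gria2, 1.10 for Gria1, 1.12 for Gria4 and 1.14 for Gria3, and none passed the threshold. Gria4 (GRCm38 chromosome 9, 4417896 to 4796234) measured 44.4, 45.4 and 44.1 FPKM in DKO and 39.1, 40.7 and 40.2 FPKM in control libraries, for replicates 1 to 3 in order. All DKO values of Gria4 lay above all control values, and each group spanned less than the gap between the group means. The statistics of Gria4 were the strongest of the 36 genes (log2 fold change 0.15, SE 0.04; adjusted p = 0.460 by the Benjamini-Hochberg method in limma). Gria3 (chromosome X, 41400854 to 41678601) measured 20.1, 19.0 and 21.6 FPKM in DKO and 18.0, 17.6 and 17.9 FPKM in control libraries. The groups of Gria3 were also apart, and the DKO values were the more scattered (log2 fold change 0.17, SE 0.06; adjusted p = 0.572 by the Benjamini-Hochberg method in limma). Gria2 (chromosome 3, 80681450 to 80802835) measured 57.6, 61.5 and 59.8 FPKM in DKO and 57.3, 55.3 and 56.3 FPKM in control libraries. DKO replicate 1 and control replicate 1 of Gria2 nearly met (log2 fold change 0.08, limma 95% interval -0.02 to 0.18). Gria1 (chromosome 11, 57011387 to 57330244) measured 16.6, 18.3 and 18.2 FPKM in DKO and 15.7, 15.8 and 16.8 FPKM in control libraries. Its groups overlapped at DKO replicate 1 (log2 fold change 0.13, limma 95% interval -0.02 to 0.27). Summed over the 4 genes, the level was 142 ± 3.09 FPKM in DKO and 130.2 ± 0.900 FPKM in control libraries (SD, n = 3 each), a ratio of 1.09.

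Kainate receptor genes were led by Grik5, whose product needs a partner of the Grik1 to Grik3 type to form a channel, and by Grik1, known in the retina from OFF cone bipolar cells. Grik5 measured 39.6 to 43.3 FPKM and Grik1 30.9 to 36.2 FPKM over the 6 libraries, and together they dominated the family. Grik5 made up 46.9% ± 0.829 of the summed kainate FPKM in DKO and 46.2% ± 1.78 in control libraries, and Grik1 35.5% ± 1.55 and 37.7% ± 1.75 (SD, n = 3 each). Grik2, Grik3 and Grik4 followed at means of 8.05, 4.78 and 2.29 FPKM, and no neighbours in this order overlapped in their ranges. For Grik5 and Grik1 the groups overlapped, with limma log2 fold changes of 0.05 (95% interval -0.06 to 0.15) and -0.06 (-0.21 to 0.10).

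The less abundant Grik2 and Grik4 lay higher in all DKO libraries. Grik2, a channel-forming subunit (chromosome 10, 49094833 to 49788766), measured 8.54, 8.80 and 8.77 FPKM in DKO and 7.43, 7.15 and 7.60 FPKM in control libraries. The 6 values of Grik2 formed separate groups with little spread within each, and the ratio of means was 1.18 (log2 fold change 0.21, SE 0.07; adjusted p = 0.518 by the Benjamini-Hochberg method in limma). Grik4, like Grik5 a subunit that works with a partner (chromosome 9, 42518135 to 42944493), measured 2.85, 2.43 and 2.41 FPKM in DKO and 1.97, 2.07 and 2.02 FPKM in control libraries. DKO replicate 1 was the highest for Grik4, the control libraries were close together, and the ratio of means was 1.27 (log2 fold change 0.24, SE 0.10; adjusted p = 0.639 by the Benjamini-Hochberg method in limma). Grik3 measured 4.13 to 5.44 FPKM in DKO and 4.42 to 5.46 FPKM in control libraries, which overlapped. The summed kainate level was 90.6 ± 1.79 FPKM in DKO and 89.1 ± 2.76 FPKM in control libraries (SD, n = 3 each), which overlapped as well. Within the sum, the share of Grik2 was 9.61% ± 0.316 against 8.31% ± 0.493 and that of Grik4 2.83% ± 0.248 against 2.27% ± 0.0273 (SD, n = 3 each), and both shares separated the groups.

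The upstream sequences of receptor genes whose groups did not overlap are shown because these genes lay higher in the same 3 libraries. They are the 250 bases before the RefSeq start of Gria2, Gria4, Grik2 and Grik4 (GRCm38.p6), written 5′ to 3′ along the strand of the gene, with every CG dinucleotide in capitals. Gria3 and Grm4 had no entry. By the GENCODE coordinates given above, Grik4 reaches to 42944493 and Grik2 to 49788766. Part of the Grik4 window and a few bases of the Grik2 window therefore lie inside the gene by that annotation, and are upstream only by RefSeq.
Gria2, chr3:80802836-80803085, minus strand: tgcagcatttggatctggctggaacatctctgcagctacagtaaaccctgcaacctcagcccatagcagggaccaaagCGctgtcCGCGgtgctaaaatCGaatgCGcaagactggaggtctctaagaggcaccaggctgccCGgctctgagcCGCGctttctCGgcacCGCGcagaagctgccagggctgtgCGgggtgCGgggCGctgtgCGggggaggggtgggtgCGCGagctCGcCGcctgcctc
Gria4, chr9:4796235-4796484, minus strand: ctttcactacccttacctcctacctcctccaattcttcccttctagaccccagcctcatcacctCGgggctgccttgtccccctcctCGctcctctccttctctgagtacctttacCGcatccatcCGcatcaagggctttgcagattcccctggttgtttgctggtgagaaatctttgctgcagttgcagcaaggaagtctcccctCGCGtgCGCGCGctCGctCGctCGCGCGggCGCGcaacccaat
Grik2, chr10:49788755-49789004, minus strand: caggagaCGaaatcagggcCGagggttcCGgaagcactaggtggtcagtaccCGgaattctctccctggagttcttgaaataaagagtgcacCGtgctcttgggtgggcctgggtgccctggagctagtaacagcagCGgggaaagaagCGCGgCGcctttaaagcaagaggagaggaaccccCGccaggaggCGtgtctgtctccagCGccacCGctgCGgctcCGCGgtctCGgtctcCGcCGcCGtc
Grik4, chr9:42944372-42944621, minus strand: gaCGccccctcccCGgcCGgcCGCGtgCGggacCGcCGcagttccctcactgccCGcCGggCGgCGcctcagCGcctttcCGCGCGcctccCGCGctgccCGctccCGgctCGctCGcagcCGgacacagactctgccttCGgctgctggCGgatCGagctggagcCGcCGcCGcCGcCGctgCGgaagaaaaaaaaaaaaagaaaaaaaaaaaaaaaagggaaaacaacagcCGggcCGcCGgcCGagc

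These windows hold 19 CG dinucleotides in Gria2, 16 in Gria4, 20 in Grik2 and 36 in Grik4. Over the 24 of 37 genes with an entry the median was 13.5, and over all 27025 symbols with one it was 6. At least 10 CG dinucleotides were found in 54.2% of the 24 windows and in 38.2% of all windows. The GC box GGGCGG, searched on both strands, was found in 11 of the 24 windows (45.8%, against 32.9% of all), Grik4 among them but not Gria2, Gria4 or Grik2. The TATA box TATAAA was found in 1 window, that of Grin3b (4.17% against 13.0%), the E-box CACGTG in 1, that of Grin1 (4.17% against 6.05%), and the half-site TGACGT in 1, that of Homer1 (4.17% against 6.56%). Apart from the GC box of Grik4, none of the 4 motifs was found in the printed windows, which says only that those letters are not in these stretches.

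NMDA receptors need Grin1 in every channel, together with Grin2 or Grin3 subunits, and pass calcium when glutamate and a co-agonist bind while the membrane is depolarised. Grin1 measured 29.6, 30.4 and 30.4 FPKM in DKO and 28.3, 31.5 and 30.1 FPKM in control libraries. The groups of Grin1 overlapped, with a limma log2 fold change of 0.0085 and a 95% interval of -0.12 to 0.13. Grin1 made up 68.5% ± 0.358 and 68.3% ± 0.228 of the summed NMDA FPKM (SD, n = 3 each). Its level was 8.80 to 10.2 times that of Grin2b in the 6 libraries. The ratio was 8.95 ± 0.235 in DKO and 9.89 ± 0.271 in control libraries (SD, n = 3 each) and did not overlap between the groups. Neither gene alone separated the groups, and the ratio was not tested.

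Among the Grin2 genes, which set the kinetics and magnesium block of the channel, no single subunit dominated. In DKO libraries Grin2b made up 31.9% ± 1.65 of their sum, Grin2d 30.8% ± 2.99, Grin2a 22.8% ± 2.58 and Grin2c 14.6% ± 1.81 (SD, n = 3). In control libraries the shares in the same order were 29.6% ± 0.782, 31.8% ± 2.08, 22.4% ± 2.55 and 16.3% ± 2.28 (SD, n = 3). All 4 shares overlapped between the groups, and Grin2b and Grin2d could not be ordered, since each was the higher in 3 of 6 libraries. In many brain regions Grin2b precedes Grin2a in development, and here the ratio of Grin2b to Grin2a was 1.18 to 1.56 over the 6 libraries. Grin2b measured 3.21, 3.45 and 3.46 FPKM in DKO and 2.87, 3.27 and 2.96 FPKM in control libraries, which overlapped at control replicate 2 (log2 fold change 0.12, limma 95% interval -0.10 to 0.33). For Grin2a the interval was -0.23 to 0.33, for Grin2c -0.36 to 0.22 and for Grin2d -0.24 to 0.24 (limma). Grin3a, which lowers calcium entry through the channel, measured 2.35 to 2.84 FPKM and overlapped as well. Grin3b measured 0.644, 0.590 and 0.645 FPKM in DKO and 0.674, 0.903 and 1.01 FPKM in control libraries. Every DKO value of Grin3b lay below every control value. It was left out of the fit as a low gene, and without the filter on low values its log2 fold change was -0.19 (limma, Benjamini-Hochberg adjusted p = 0.727).

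The 6 metabotropic receptor genes, which do not include Grm6, had means of 2.18 to 8.21 FPKM, and no single one dominated their sum. Grm2 (mean 8.21 FPKM), a presynaptic receptor coupled to inhibitory G proteins, was followed by Grm7 (7.03 FPKM), Grm8 (6.16 FPKM) and Grm4 (5.52 FPKM), which belong to the same receptor group as Grm6. The ranges of neighbours in this stretch of the order overlapped. Grm5, which signals through Gq and phospholipase C, had a mean of 4.13 FPKM and Grm3, a relative of Grm2, 2.18 FPKM. Grm6, the receptor of ON bipolar cells and not counted among the 37 genes, measured 55.1 to 63.0 FPKM, or 6.71 to 7.79 times the level of Grm2. Its log2 fold change was 0.06 (limma, 95% interval -0.08 to 0.19).

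Of the 6 metabotropic genes, Grm4 (chromosome 17, 27422387 to 27521403) was the one whose groups did not overlap. It measured 6.18, 5.49 and 5.85 FPKM in DKO and 5.14, 5.40 and 5.08 FPKM in control libraries. DKO replicate 2 and control replicate 2 of Grm4 lay close together (log2 fold change 0.14, SE 0.08; adjusted p = 0.737 by the Benjamini-Hochberg method in limma). Grm2 measured 8.06 to 9.38 FPKM in DKO and 7.08 to 8.45 FPKM in control libraries, with a limma log2 fold change of 0.10 (95% interval -0.11 to 0.31). Grm5, Grm3, Grm7 and Grm8 overlapped too, with log2 fold changes of -0.02, 0.05, 0.08 and 0.06. The summed level of the 6 genes was 34.2 ± 1.06 FPKM in DKO and 32.2 ± 1.27 FPKM in control libraries (SD, n = 3 each), which also overlapped. Grid1, a delta receptor that binds cerebellins at synapses and does not open to glutamate, measured 8.62, 9.35 and 10.9 FPKM in DKO and 7.999, 11.3 and 11.4 FPKM in control libraries. Control replicate 1 of Grid1 was the lowest of the 6, and the 95% interval of its log2 fold change was -0.39 to 0.25 (limma).

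**Figure D3:**
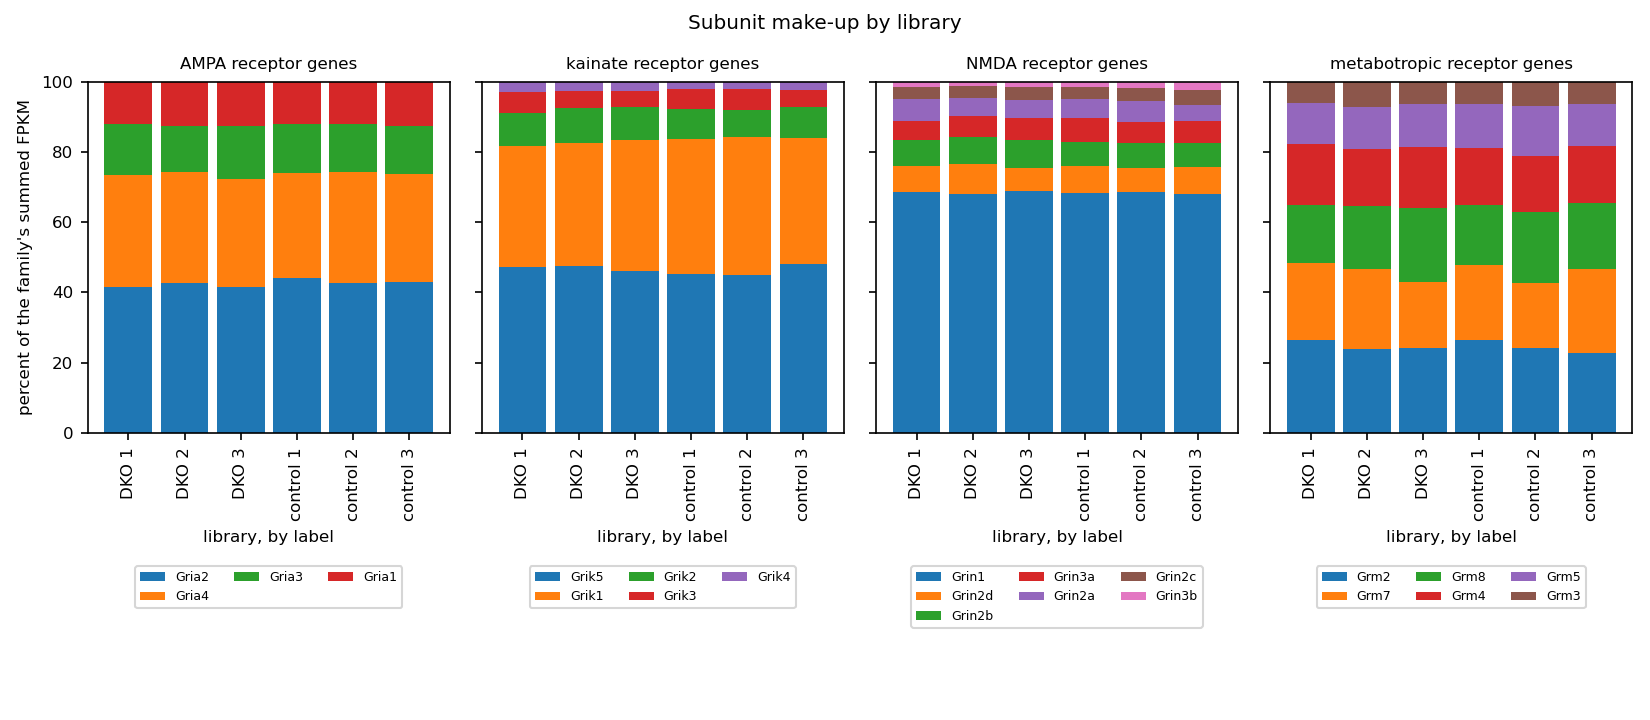
Share of each gene in the summed FPKM of its receptor family, in percent, for the 6 libraries (bars, named by label and replicate), with AMPA, kainate, NMDA and metabotropic genes in separate panels. Segments are stacked by mean share from Gria2, Grik5, Grin1 and Grm2 at the base; Grin1 takes 68.1% to 68.9% of the NMDA sum.

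The transmembrane AMPA receptor regulatory proteins were led by Cacng7, which modulates channel gating. Cacng7 made up 45.0% ± 0.696 of the summed level of the 6 auxiliary genes in DKO and 46.3% ± 1.26 in control libraries (SD, n = 3 each). Cacng4 had a mean of 49.0 FPKM, Cacng3 32.9 FPKM, Cacng5 19.8 FPKM, Cacng2, the stargazin gene, 9.14 FPKM and Cacng8 2.75 FPKM, with no overlap between neighbours in this order. The level of Cacng7 was 10.1 to 10.9 times that of Cacng2 in the 6 libraries. For Cacng7 the log2 fold change was -0.0083 (limma, 95% interval -0.14 to 0.12), and with quantile normalization it turned to 0.015. For Cacng2 the 95% interval was -0.17 to 0.18 and for Cacng5 -0.24 to 0.12 (limma).

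Cacng3 and Cacng4, which carry AMPA receptors to the synapse, were the auxiliary genes with separate groups. Cacng3 (chromosome 7, 122670492 to 122769393) measured 33.2, 34.7 and 36.1 FPKM in DKO and 30.8, 32.9 and 29.8 FPKM in control libraries. DKO replicate 1 and control replicate 2 of Cacng3 nearly touched, and the ratio of means was 1.11 (log2 fold change 0.15, SE 0.06; adjusted p = 0.592 by the Benjamini-Hochberg method in limma). Cacng4 (chromosome 11, 107732357 to 107794557) measured 49.2, 51.2 and 51.0 FPKM in DKO and 48.8, 45.9 and 47.9 FPKM in control libraries. Its nearest values, DKO replicate 1 and control replicate 1, differed by less than the spread within either group (log2 fold change 0.08, SE 0.05; adjusted p = 0.716 by the Benjamini-Hochberg method in limma). Cacng8 measured 2.82, 3.37 and 1.99 FPKM in DKO and 2.12, 4.20 and 1.998 FPKM in control libraries. High and low values of Cacng8 occurred in both groups, and its 95% interval of -0.53 to 0.55 was the widest of the 36 genes (limma). The summed level of the 6 auxiliary genes was 211 ± 7.38 FPKM in DKO and 207 ± 6.20 FPKM in control libraries (SD, n = 3 each) and overlapped.

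Neto1 and Neto2, the auxiliary subunits of kainate receptors, had log2 fold changes of -0.09 and -0.14, of the same sign as Grik1 and Grik3 and opposite to Grik2, Grik4 and Grik5, with intervals that include 0. Neto2 measured 8.37, 9.24 and 10.2 FPKM in DKO and 9.87, 9.76 and 11.2 FPKM in control libraries. The groups of Neto2 overlapped at DKO replicate 3 (limma, 95% interval -0.35 to 0.07). Neto1 measured 6.46, 6.46 and 6.37 FPKM in DKO and 7.09, 7.80 and 6.01 FPKM in control libraries, with the lowest of the 6 values in control replicate 3 (limma, 95% interval -0.32 to 0.13).

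The groups overlapped in all 6 scaffold genes. Dlg4 encodes PSD-95, which in the retina is also known from photoreceptor terminals, and measured 229, 234 and 249 FPKM in DKO and 193, 246 and 227 FPKM in control libraries. The lowest Dlg4 value was in control replicate 1 (log2 fold change 0.10, limma 95% interval -0.10 to 0.30), and without that library the log2 fold change was 0.0043. Dlg2, which encodes the related PSD-93, measured 62.2 to 65.3 FPKM in DKO and 60.8 to 64.6 FPKM in control libraries (limma, 95% interval -0.07 to 0.14). The level of Dlg4 was 2.99 to 4.04 times that of Dlg2, the lowest ratio again in control replicate 1. Shank1, Shank2 and Shank3, which link receptor complexes to the actin cytoskeleton, had means of 18.5, 20.2 and 9.23 FPKM and log2 fold changes of 0.03, 0.09 and -0.11. Homer1, which ties group I metabotropic receptors to internal calcium stores, measured 8.58 to 9.25 FPKM with a log2 fold change of -0.02 (limma, 95% interval -0.17 to 0.13). Long and short forms of Homer1, the flip and flop forms of AMPA subunits and the splice forms of Grin1 are not resolved in gene-level values.

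Marker lists of retinal cell classes also lay apart between the groups. The 7 amacrine markers summed to 357 to 363 FPKM in DKO and 309 to 331 FPKM in control libraries, and 5 of the 7 (Gad1, Gad2, Tfap2a, Tfap2b and Slc32a1) were higher in every DKO library, against 6.96% of all rows. The 8 ganglion cell markers summed to 663 to 687 FPKM in DKO and 725 to 786 FPKM in control libraries, and 6 of the 8, Slc17a6 among them, were lower in every DKO library, against 6.95% of all rows. The 7 cone markers summed to 528 to 582 FPKM in DKO and 592 to 644 FPKM in control libraries. Of these 7, 3 were lower in every DKO library, against 6.95% of all rows, and 1 was above 0 in log2 fold change. The 8 ON bipolar markers summed to 621 to 639.8 FPKM in DKO and 675 to 699.8 FPKM in control libraries. Of these 8, Trpm1, Isl1 and Pcp2 were lower in every DKO library, against 6.95% of all rows, 4 were above 0 and the median log2 fold change was -0.03. Most of the difference between the ON bipolar sums came from Pcp2, with means of 260 FPKM in DKO and 302 FPKM in control libraries. The 5 horizontal cell markers summed to 86.9 to 88.1 FPKM in DKO and 90.1 to 102 FPKM in control libraries. Of these 5, 2 were lower in every DKO library, against 6.95% of all rows, and 1 was above 0. Most of the difference between the horizontal cell sums came from Calb1, with means of 26.6 FPKM in DKO and 33.8 FPKM in control libraries. Prox1, the highest of the 5, had means of 52.4 and 52.7 FPKM. The rod, OFF bipolar and Müller glia sums overlapped. The kainate, NMDA, metabotropic and AMPA auxiliary sums overlapped as well, and of these families only the AMPA sum lay apart. Its direction was that of the amacrine sum and opposite to the ganglion cell, cone, ON bipolar and horizontal cell sums. The part of these classes in the values of the AMPA, kainate, Grm4 and auxiliary genes was not tested. In bulk RNA fewer cells of a class and less RNA per cell cannot be told apart. None of these markers passed the adjusted threshold in limma.

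**Figure D4:**
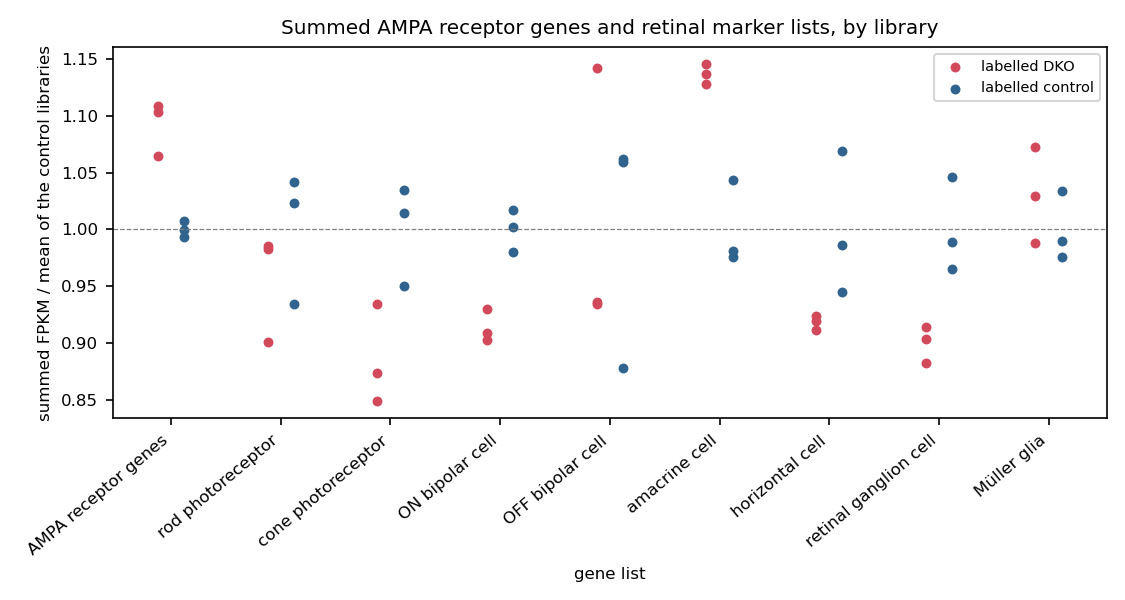
Summed FPKM of the 4 AMPA receptor genes and of 8 retinal marker lists in each library, divided by the mean of the 3 control libraries. Points are libraries; the DKO points lie above the control points for the AMPA genes (1.06 to 1.11) and amacrine markers (1.13 to 1.15) and below them for ganglion cell, cone, ON bipolar and horizontal cell markers.

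The rest of the glutamate synapse was read from 7 lists of 78 genes, of which 77 had a row and 75 were tested. None passed the threshold (limma, Benjamini-Hochberg adjusted p 0.142 to 0.998), 9 had an unadjusted limma p under 0.05 (7.88% of all rows), and 50 were above 0 (49.5% of all rows), with a median log2 fold change of 0.04. Every DKO value lay above every control value in 9 of the 75 genes, or 12%, against 6.96% of all rows. Every DKO value lay below in 3 of the 75, Olfm1, Camk2a and Slc17a6, against 6.95% of all rows. Slc1a2, the main glutamate transporter of glia and a gene of cones and bipolar cells in the retina, had the lowest adjusted p of these lists and was singled out after its values were seen. It measured 59.2, 56.1 and 58.2 FPKM in DKO and 47.5, 45.5 and 45.5 FPKM in control libraries, with separate groups (log2 fold change 0.32, SE 0.04; adjusted p = 0.142 by the Benjamini-Hochberg method in limma).

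Of the 19 genes for AMPA receptor assembly, 0 passed in either direction, 9 were above 0 and 10 below. Cnih2, an auxiliary subunit that slows AMPA channel closing, had a log2 fold change of -0.15 (limma, 95% interval -0.34 to 0.03) and Nptx1, a secreted pentraxin that clusters AMPA receptors, -0.0074. All 6 tested genes of AMPA receptor trafficking were above 0 and 0 passed, with the PDZ proteins Grip1 at 0.07 and Pick1 at 0.10. Of 21 scaffold, adhesion and kinase genes, 0 passed, 15 were above 0 and 6 below. Among them the log2 fold change was 0.03 for Dlg1, 0.0095 for Dlg3, 0.07 for Homer2, -0.05 for Homer3, -0.06 for the adhesion gene Nlgn1 and -0.05 for the kinase gene Camk2b. Camk2a, whose product acts on AMPA receptors in plasticity, measured 11.3 to 11.5 FPKM in DKO and 11.7 to 13.3 FPKM in control libraries, apart in the direction opposite to the AMPA genes (log2 fold change -0.11).

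The 3 editing enzyme genes were all above 0 and 0 passed. Adarb1, whose product edits the Gria2 transcript, measured 46.4, 45.6 and 47.1 FPKM in DKO and 42.6, 46.4 and 40.1 FPKM in control libraries. Control replicate 2 of Adarb1 reached the DKO values (log2 fold change 0.11, limma 95% interval -0.03 to 0.25), and editing itself is not measured by FPKM. Of the 12 tested genes of metabotropic signalling, 0 passed, 8 were above 0 and 4 below, with the G protein gene Gnao1 at -0.04. Of the 13 genes of glutamate supply and clearance, 0 passed, 8 were above 0 and 5 below. The vesicular transporter Slc17a6, a gene of retinal ganglion cells, measured 20.4, 20.6 and 19.5 FPKM in DKO and 22.6, 22.2 and 22.1 FPKM in control libraries. The groups of Slc17a6 were apart (log2 fold change -0.14, SE 0.05; adjusted p = 0.574 by the Benjamini-Hochberg method in limma). Slc17a7, the vesicular transporter of photoreceptors and bipolar cells, measured 518 to 522 FPKM in DKO and 519.8 to 567 FPKM in control libraries and overlapped at control replicate 3.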

How the data were processed

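The series holds 6 libraries of mouse brain RNA, 3 labelled DKO and 3 labelled control, made with a stranded mRNA kit per the labels' protocols. FPKM values were deposited by the authors in 1 file per library, per the file headers. The submitters' processing notes name TopHat2 2.1.1, Bowtie2, Cuffdiff 2.2.1 and mm10. Aligner options, annotation and use of strand in counting were not given in the sources used here. Symbols chose the 37 genes, which, like all lists, were picked with earlier results of these data known. The named genes are the 37, 16 pathway genes fixed by symbol, any other pathway gene past the threshold, and the host transcripts; Emx1, Mir8104, Slc1a2, Olfm1 and the marker genes were named after their values were seen.

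Rows with a mean of 1 FPKM or more over the 6 libraries (13215) were tested on log2(FPKM + 1), which understates changes of low genes. limma 3.58.1 in R 4.3.3 was used (lmFit, eBayes with a trend), with Benjamini-Hochberg adjustment over all tested rows and a threshold of 0.05. Shares, sums and ratios are descriptions without a test, and no background was counted for those that separated the groups. Read totals are unknown, so precision rests on the 3 libraries of a group. The labels give no litters, so p-values measure the spread between these libraries, which may be technical. No 2 libraries shared more than 0.00570% of their values above 0. The fit was tested on simulated data in which 200 of the 13215 rows were given known log2 changes. It recovered 7.46% of changes of 0.25, 56.7% of changes of 0.5 and 86.4% of changes of 1, and 3.85% of its calls were false. Recovery depends on how many rows change, and with 3 rows passing in the data it may be lower there. Changes as small as the estimates of the 36 genes would thus mostly be missed. Certain genes of the pathway and marker lists are not reported here and were left out of the lists and their sums. Python 3.11.15, pandas 2.3.3, NumPy 2.4.6, SciPy 1.17.1 and matplotlib 3.10.9 were used. Coordinates in the text are those of GENCODE M21 (GRCm38, the assembly of mm10), and upstream sequences those of RefSeq (GRCm38.p6), where 24 of the 37 symbols matched. Other settings tried were a pseudocount of 0.1 or 0.5, testing every row, a minimum mean of 5 FPKM, scaling by median of ratios, quantiles, a block for replicate number, eBayes with no trend, and leaving out each library. Marker lists not described in the report, as summed FPKM over all libraries: oligodendrocyte 23.5 to 27.9 FPKM, microglia 20.6 to 35.3 FPKM and endothelium 100.5 to 111 FPKM.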

Additional observations from a re-analysis of the deposited data

How the results depend on the processing

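The count of 0 passing genes, among the 37 and in the pathway lists, held in all 14 alternatives (limma, Benjamini-Hochberg adjusted p of the 37 genes 0.407 to 1). Of 494 values of the 36 genes under the alternatives, 469 kept their sign and 25 changed it in 13 genes, 24 of them when 1 library was left out and the other in Cacng7 (0.015 with quantile normalization). With single libraries left out, log2 fold changes that changed sign ranged as follows: Grid1 -0.22 to 0.011, Grin1 -0.031 to 0.044, Grin2a -0.012 to 0.13, Grin2c -0.14 to 0.0025, Grin2d -0.073 to 0.064, Grm5 -0.078 to 0.065, Grm8 -0.014 to 0.13, Cacng2 -0.056 to 0.034, Cacng5 -0.11 to 0.0044, Cacng7 -0.048 to 0.029, Cacng8 -0.13 to 0.27, Shank1 -0.017 to 0.057, Homer1 -0.046 to 0.0025, Dlg3 -0.014 to 0.024, Homer3 -0.11 to 0.037, Nptx1 -0.039 to 0.024, Grip1 -0.014 to 0.13. Mir124a-1hg ranged from -0.053 to 0.11. Without a change of sign, Dlg4 ranged from 0.0043 to 0.18 and the median of the 36 genes from 0.021 to 0.060. Between 2 and 5 of the 36 genes had an unadjusted p under 0.05 in limma. The number of genes with every DKO value above every control value was 8 to 15, the latter without control replicate 2 (12.1% of all rows). With the replicate block, 0 genes passed and 4 had an unadjusted p under 0.05 in limma. For the counts at an unadjusted p under 0.05 in these settings, the share of all rows is not given. They therefore cannot be set against a background. Across rows, same-numbered libraries deviated together at r = 0.072, 0.0063 and 0.10 and others at -0.12 to 0.036. The same-numbered values were small but all above 0, so a shared effect of replicate number is possible and was not tested. The labels name no pairs, and the main fit used none. The cause of the changes of sign and count between settings was not tested, except that groups of 2 libraries are apart more often by construction. Unknown read totals and 3 libraries per group limit what could be detected.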
